A study of Homo sapiens with 8 samples.

Results

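Selenoprotein mRNAs were followed through a block of transcription in SW480 cells with and without knockdown of RBMS1. The set comprised 10 genes named by function, the glutathione peroxidases GPX1, GPX2 and GPX4, the thioredoxin reductases TXNRD1 and TXNRD2, and SELENOF, SELENOH, SELENOK, SELENOT and SELENOW. All 10 had a value in both cell populations, out of 12484 genes that did. They accounted for 20 listed RefSeq transcripts, all of them coding, of 22468 in the series. Of these, 18 were listed for knockdown cells and 20 for control cells, and the 18 were in both tables.

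SW480 is an established human line from a colorectal adenocarcinoma, although the series description calls it a breast cancer line. The 4 groups were shRBMS1 cells after 9 h of alpha-amanitin at 10 µg/mL, shRBMS1 cells at 0 h, shControl cells after 9 h and shControl cells at 0 h, with 2 libraries of ribosomal RNA-depleted total RNA each; nothing says that these came from separate cultures. The shRNAs were stably expressed, the series description names 2 clones against RBMS1 and the treatment label names 1 of them, so the clone carried by the knockdown libraries is not settled here. RBMS1 is an RNA-binding protein that has been described as a stabiliser of mRNAs through their 3′ untranslated regions, and the comparison asked whether mRNA decay differed when it was depleted. Alpha-amanitin is a mushroom toxin that inhibits RNA polymerase II, so an mRNA that is no longer made declines at the pace of its decay.

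Each value is the authors' log2 fold change of 9 h over 0 h for 1 transcript, with the libraries already combined. The deposited tables hold no value per library, no abundance and no read count, so depth and replicate spread are unknown, no test was possible, and all that follows is description. The direction was read from the short-lived mRNAs of MYC (−1.38 in knockdown cells and −1.44 in control cells in the authors' deposited tables), FOS (−1.24 and −1.61) and JUN (−0.81 and −1.01). Normalisation is not stated, and a fold change was taken as relative to the rest of the library. The median over all genes was near 0, at −0.06 in knockdown and −0.07 in control cells. On that reading a value above 0 marks an mRNA that declined less than most and not one that was made anew. In bulk samples fewer cells and less RNA per cell cannot be told apart. The tables hold no check of the knockdown, since RBMS1 itself appears only as a ratio of 9 h to 0 h, at −0.35 and −1.38 in knockdown cells and at 0.09 and −0.37 in control cells for its transcripts in the authors' deposited tables. Of 8 colon epithelial marker genes, 7 had a listed transcript in at least 1 table, against 1 of 5 breast epithelial markers and 3 of 11 markers of other cell types; listing shows that a ratio was given, not a level.

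Selenoproteins contain selenocysteine, an amino acid that ribosomes insert at a UGA codon which in other mRNAs ends translation. The insertion needs a stem-loop in the 3′ untranslated region, the SECIS element, the protein SECISBP2 that binds it, a dedicated elongation factor (EEFSEC) and a dedicated tRNA. When selenium is scarce the UGA can be read as a stop, and where an exon junction lies far enough downstream the mRNA can then be degraded by nonsense-mediated decay, as is well known for GPX1. In the intestinal epithelium glutathione peroxidases and thioredoxin reductases remove peroxides and keep thioredoxin reduced.

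The codon that defines the set is given for each gene with 12 mRNA-strand bases on either side from 1 GENCODE release 29 transcript per gene, written as DNA with the selenocysteine TGA in capitals.
GPX1: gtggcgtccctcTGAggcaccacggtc
GPX2: gtggcttcgctcTGAggcacaaccacc
GPX4: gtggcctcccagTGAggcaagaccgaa
TXNRD1: caggctggctgcTGAggttaagcccca
TXNRD2: gtgacaggctgcTGAgggtaagcgcca
SELENOF: gaagtttgtggaTGAaaattgggaagg
SELENOH: cattgcactagcTGAcgcgtctatggg
SELENOK: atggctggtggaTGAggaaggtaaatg
SELENOT: atttgtgtttccTGAggttataggcgg
SELENOW: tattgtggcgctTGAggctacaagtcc
A G followed the TGA in 8 of the 10, the exceptions being SELENOF and SELENOH, and the triplet ggc followed it in GPX1, GPX2, GPX4 and SELENOW. In both thioredoxin reductases the selenocysteine is the last residue but one, and the terminating taa stands right after the next codon. On GRCh38 the codons lie at chr3:49358132-49358134 (GPX1, minus strand), chr14:64942607-64942609 (GPX2, minus), chr19:1105403-1105405 (GPX4, plus), chr12:104348413-104348415 (TXNRD1, plus) and chr22:19877111-19877113 (TXNRD2, minus). The others lie at chr1:86880690-86880692 (SELENOF, minus), chr11:57741816-57741818 (SELENOH, plus), chr3:53885831-53885833 (SELENOK, minus), chr3:150622392-150622394 (SELENOT, plus) and chr19:47780732-47780734 (SELENOW, plus).

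The place of the codon differs among the 10 mRNAs. It is residue 13 of 87 in SELENOW, 49 of 195 in SELENOT, 44 of 122 in SELENOH, 40 of 190 in GPX2, 73 of 197 in GPX4 and 96 of 165 in SELENOF. Near the other end it is residue 92 of 94 in SELENOK, 523 of 524 in TXNRD2 and 550 of 551 in TXNRD1. The last exon junction lay 470 bases after the codon in SELENOT, 342 in GPX4, 267 in SELENOH, 243 in SELENOW, 102 in GPX2, 78 in SELENOF, 71 in TXNRD2 and 5 in SELENOK. In TXNRD1 the codon is in the last exon, 63 bases past the junction (−63). For GPX1 the main listed transcript had no paired model. An unpaired model of 203 codons and 2 exons has the codon at residue 49 with the junction 105 bases downstream, while the model paired with the other listed transcript has 1 exon and 98 codons.

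**Figure D1:**
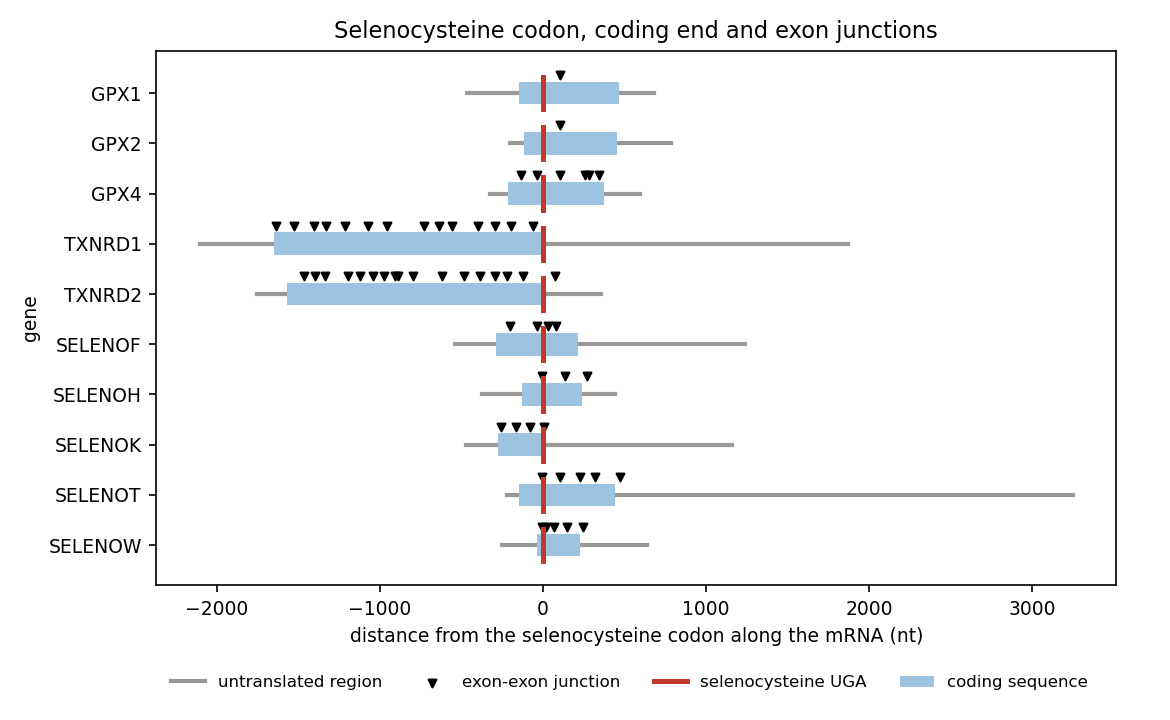
Position of the selenocysteine codon along each mRNA, in nucleotides from that codon, with the coding sequence as a box, untranslated regions as lines and exon-exon junctions as triangles; GPX1 is drawn from its unpaired 2-exon model. The codon sits near the start of the coding sequence in SELENOW and at its very end in TXNRD1 and TXNRD2, and in TXNRD1 no junction follows it.

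After the block, mRNAs of these 10 genes mostly held up better than most, which did not hold for the other measured selenoproteins given below. In knockdown cells 8 of the 10 genes lay above 0, against 45.9% of all genes, with a median of 0.25 beside −0.06 for all genes. In control cells all 10 lay above 0, against 45.7% of all genes, with a median of 0.44 beside −0.07. Such gene values are means over the transcripts in both tables. No gene of the set reached 1 in size, a 2-fold change, in either population. Of all genes 4.07% reached 1 and 9.2% reached −1 in knockdown cells, and 3.51% and 9.73% did in control cells. None among 10 genes is close to these shares and does not set the 10 apart. Among single transcripts of the set, 13 of 18 were above 0 in knockdown cells (47.8% of all transcripts), 1 reached 1 (8.63%) and 2 reached −1 (13.0%). In control cells 18 of 20 were above 0 (47.6%), 5 reached 1 (8.29%) and 1 reached −1 (13.8%). Those that reached 1 or −1 were all transcripts of TXNRD1, apart from NM_203341 of SELENOF in control cells. Transcripts of a gene are not separate members, so the counts at 1 and −1 largely describe TXNRD1 and not the set. For the 6 genes with 1 shared transcript, 5 lay above 0 in knockdown cells (45.4% of genes of that kind) and 6 in control cells (44.9%), with none at 1 (3.5% and 2.93%) or at −1 (8.8% and 9.74%). The level set by the library matters here. Relative to cytosolic ribosomal protein mRNAs, whose medians were 0.38 in knockdown and 0.41 in control cells, 4 and 6 of the 10 stayed above 0. Of all genes 18.8% and 17.1% did. The medians of the set became −0.13 and 0.03 while those of all genes became −0.43 and −0.48.

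The glutathione peroxidases use glutathione to reduce peroxides. GPX1, the cytosolic enzyme, has 2 transcripts. The authors' deposited tables put NM_000581 at 0.67 in knockdown and 0.52 in control cells, and NM_201397, paired with the 1-exon model, at −0.65 in knockdown and −0.28 in control cells. The transcripts of this gene thus lay on opposite sides of 0 in both populations, and their mean of 0.01 in knockdown and 0.12 in control cells describes neither. GPX4, which reduces lipid hydroperoxides in membranes and so restrains ferroptosis, had a mean of 0.26 in knockdown and 0.45 in control cells. The authors' deposited tables put its transcript NM_002085 at 0.33 in knockdown and 0.40 in control cells, NM_001039848 at 0.78 and 0.67, and NM_001039847 at −0.34 and 0.29. All 3 were above 0 in control cells, and NM_001039847 was the one below 0 in knockdown cells. GPX2, the gastrointestinal enzyme and a known NRF2 target, had 1 transcript, NM_002083, at −0.62 in knockdown and 0.23 in control cells in the authors' deposited tables. That corresponds to 64.9% of its 0 h level in knockdown and 117% in control cells, on the library's relative scale. GPX2 was the lowest of the 10 genes in knockdown cells, where 18.8% of all genes had a lower value, while in control cells 70.6% did.

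The thioredoxin reductases transfer electrons from NADPH to thioredoxin, TXNRD1 in the cytosol and TXNRD2 in mitochondria. TXNRD2 had 1 transcript, NM_006440, at 0.48 in knockdown and 0.24 in control cells in the authors' deposited tables. TXNRD1 had 7 listed transcripts, 5 of them in both tables, and these disagreed widely. The authors' deposited tables put NM_003330 at 0.78 in knockdown and 1.02 in control cells, and NM_182729 at 0.24 and 0.39. In the same pair of the authors' deposited tables, NM_001261445 stood at 3.46 in knockdown and 2.11 in control cells, NM_182742 at −1.92 and 1.27, and NM_182743 at −3.09 and −1.81. For control cells only, the authors' deposited table also lists NM_001093771 with 0.51 and NM_001261446 with 1.75. NM_182729, NM_182742 and NM_182743 are paired with the same GENCODE model of 499 codons, so values from −3.09 to 0.24 in knockdown cells came from accessions of 1 coding sequence. The TXNRD1 transcripts spanned 6.55 in knockdown and 3.92 in control cells. Among 123 genes with 5 shared transcripts the median span was 2.28 and 1.96, and 88.6% and 81.3% of those genes had a smaller one. The TXNRD1 mean of −0.11 in knockdown and 0.60 in control cells is therefore an average over very unlike estimates, and the median over the same transcripts was 0.24 and 1.02.

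The remaining members are small proteins of the cytosol, nucleus or endoplasmic reticulum. SELENOW, a small thioredoxin-fold protein, was highest of the 10 in knockdown cells and second to SELENOF in control cells, with 0.68 in knockdown and 0.76 in control cells per the authors' deposited tables, or 160% and 170% of its 0 h level. For SELENOH, a nucleolar protein, the authors' deposited tables give 0.39 in knockdown and 0.53 in control cells, and for SELENOK, a membrane protein of the endoplasmic reticulum, 0.39 and 0.44. SELENOT, also of the endoplasmic reticulum, was at 0.21 in knockdown and 0.36 in control cells in the authors' deposited tables. These 4 genes have 1 listed transcript each (NM_003009 for SELENOW, NM_170746 for SELENOH, NM_021237 for SELENOK and NM_016275 for SELENOT), and each was above 0 in both populations and slightly lower in knockdown cells. SELENOF, a partner of the glycoprotein-folding enzyme UGGT1, has 2 transcripts. NM_004261, paired with the model of 165 codons, was at 0.45 in knockdown and 0.46 in control cells in the authors' deposited tables, nearly the same value. NM_203341, paired with a shorter model of 124 codons, had 0.02 in knockdown and 1.46 in control cells per the authors' deposited tables, and it alone set the SELENOF mean of 0.24 in knockdown and 0.96 in control cells apart.

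In control cells the order of the gene values ran SELENOF, SELENOW, TXNRD1, SELENOH, GPX4, SELENOK, SELENOT, TXNRD2, GPX2 and GPX1, the highest first. In knockdown cells it ran SELENOW, TXNRD2, SELENOH, SELENOK, GPX4, SELENOF, SELENOT, GPX1, TXNRD1 and GPX2. Without replicate values it cannot be said which neighbours in these orders differ beyond their spread.

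**Figure D2:**
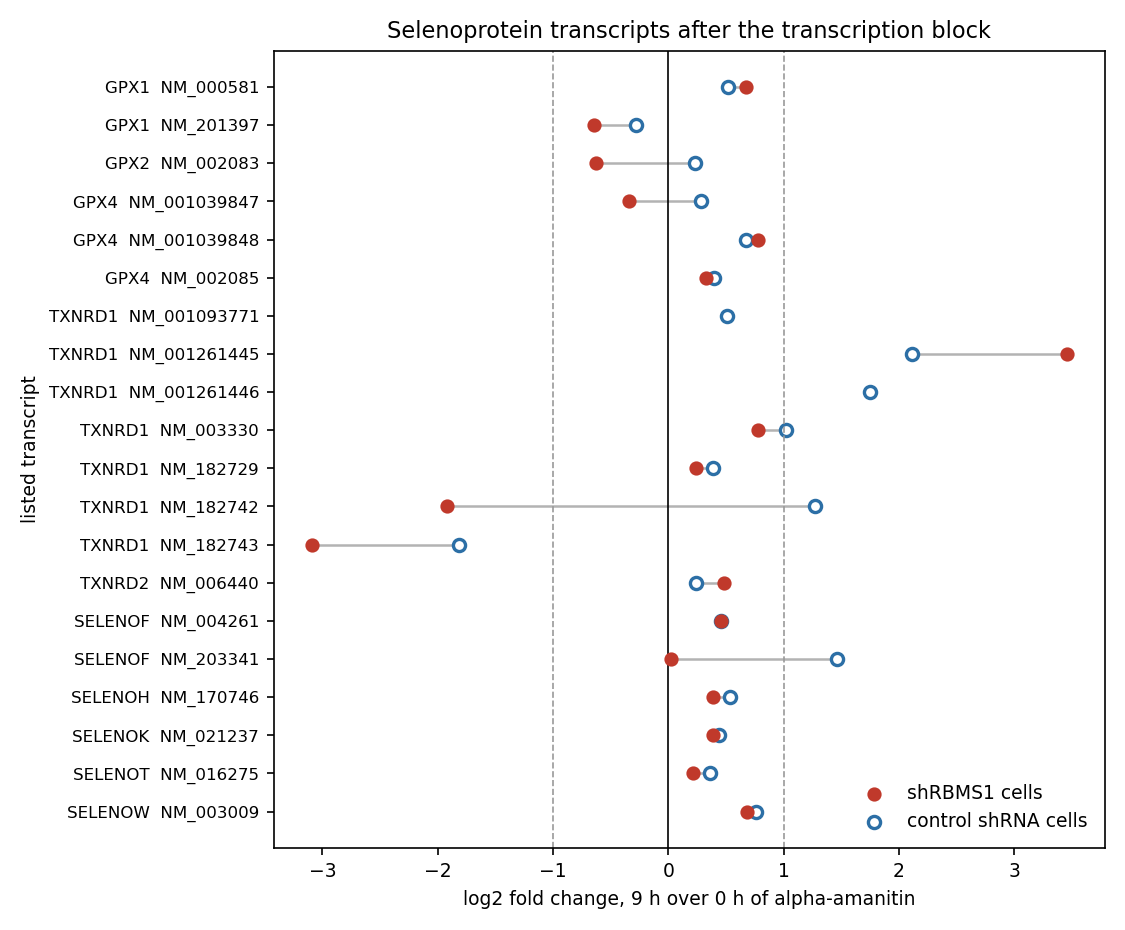
Log2 fold change of 9 h over 0 h for each of the 20 listed selenoprotein transcripts, filled points for shRBMS1 cells and open points for control shRNA cells, joined where both were listed; dashed lines mark a 2-fold change. Most pairs lie close together between 0 and 1, whereas NM_182742 of TXNRD1 stands at −1.92 in shRBMS1 and 1.27 in control cells.

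Set against control cells, 9 of the 10 selenoprotein genes had a lower value in knockdown cells. The difference, knockdown minus control and centred on the median of all genes (−0.02), had a median of −0.13 over the set. By the centring, 50% of all genes lay above 0. The difference was −0.03 for SELENOK, −0.06 for SELENOW, −0.09 for GPX1, −0.13 for SELENOH, −0.13 for SELENOT and −0.18 for GPX4, all 6 between the quartiles of all genes, −0.19 and 0.23. Under 0.5 in size were 7 of the 10, beside 76.9% of all genes. TXNRD2 was the exception in sign, at 0.26. GPX2 had the largest difference, −0.84, with 5.55% of all genes lower. SELENOF followed at −0.70 and TXNRD1 at −0.69. None of the 10 reached 1 in size, which for 10 genes is close to the shares of all genes, 4.87% at 1 and 4.17% at −1.

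The 3 larger differences do not rest on the same footing. GPX2 has a single transcript, and its difference cannot be divided further. For SELENOF the whole difference came from NM_203341, at −1.42, with NM_004261 at 0.01. For TXNRD1 the shared transcripts ran from −3.18 for NM_182742 and −1.26 for NM_182743 over −0.22 for NM_003330 and −0.13 for NM_182729 to 1.37 for NM_001261445. With the median over transcripts the TXNRD1 difference was −0.22. Another setting took each gene's least changing transcript, the one whose difference was nearest 0, which favours small sizes by construction. There TXNRD1 was at −0.13, SELENOF at 0.01 and GPX1 at 0.17. In that setting 3 of the 10 genes lay above 0 instead of 1. For GPX4, NM_001039847 was at −0.61 against −0.06 for NM_002085 and 0.12 for NM_001039848. Over single transcripts, 5 of 18 lay above 0 (49.8% of all transcripts), 3 reached −1 (8.68%) and 1 reached 1 (8.97%). Apart from NM_203341 of SELENOF, those that reached 1 or −1 were again transcripts of TXNRD1. The 6 genes with 1 shared transcript had a median of −0.10, from −0.84 for GPX2 to 0.26 for TXNRD2, beside 0.00 for the 8076 genes of that kind. Of these 6 genes 1 lay above 0 (50.3% of that kind), and none reached 1 (3.41%) or −1 (2.55%).

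**Figure D3:**
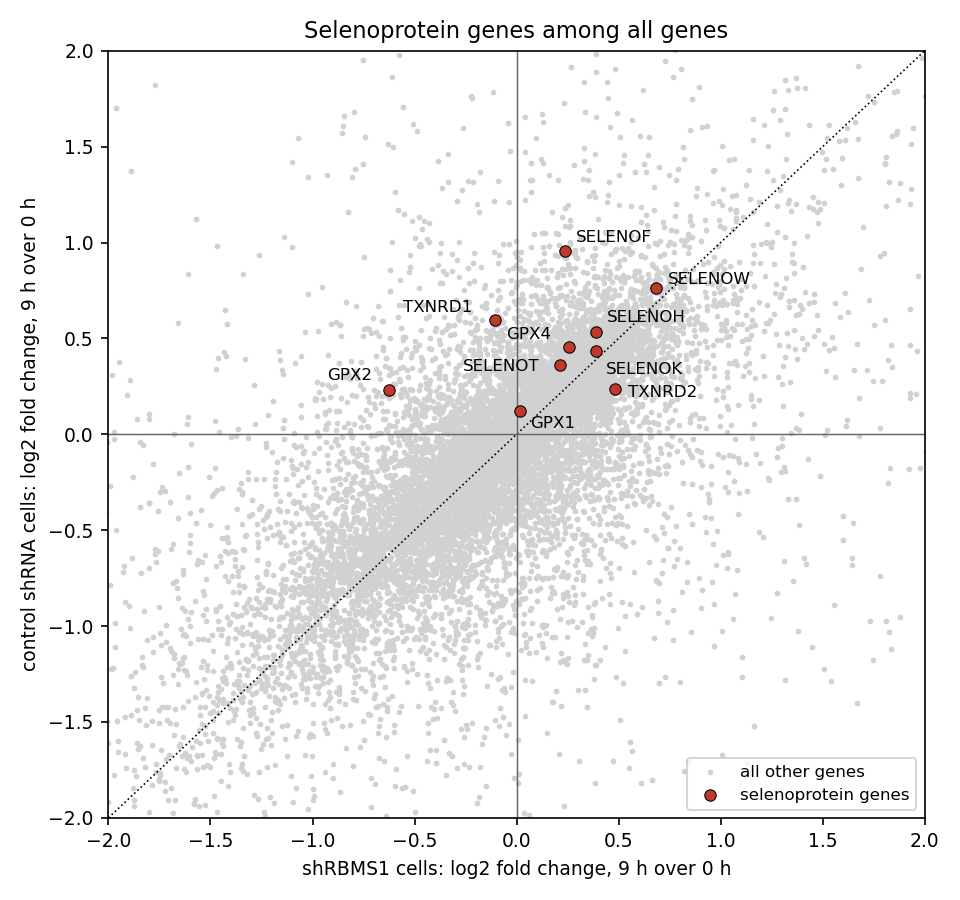
Gene values in shRBMS1 cells (horizontal) and control shRNA cells (vertical), log2 fold change of 9 h over 0 h, with the 10 selenoprotein genes in red over all other genes in grey; axes end at 2 in either direction, the dotted line marks equal values. All 10 red points lie above 0 on the vertical axis, and GPX2 and TXNRD1 lie below 0 on the horizontal axis, at −0.62 and −0.11.

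By the distance between pairs of knockdown and control values, the protein-coding genes nearest to GPX4 were TMEM52, GPN3 and TAP1, at distances of 0.01 each on the log2 scale. As 257 of 11332 coding genes lay within 0.1 of GPX4, these neighbours are ones of many. Around GPX2 the plane is emptier, with 22 genes within 0.1, and the nearest were METTL17, MLEC and MCM7 at distances of 0.03 each. The measure uses 2 values per gene.

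The other human selenoprotein genes had lower medians after the block. Of 15, 9 had values in both tables, and GPX6, DIO1, DIO2, DIO3, SELENOP and SELENOV were not analysed here. In knockdown cells 4 of the 9 lay above 0 (45.9% of all genes) with a median of −0.03, and in control cells 2 of 9 (45.7%) with a median of −0.16. Their centred difference was above 0 in 6 of 9, beside 50% of all genes, with a median of 0.21. That median was 0.0265 with the least changing transcript of a gene, a choice that favours small sizes. It was 0.0311 over genes with 1 shared transcript. Whether these genes differ from the 10 was not tested. SELENON, a protein of the endoplasmic reticulum linked to congenital muscle disease, had the highest difference, 0.74, from transcripts at −1.66 in knockdown and −2.57 in control cells and at 0.99 and 0.46 in the authors' deposited tables. GPX3, the secreted peroxidase, had a difference of 0.72, from 1.13 in knockdown and 0.42 in control cells in the authors' deposited tables. SELENOM had 0.63, with 0.54 for knockdown and −0.07 for control cells in the authors' deposited tables. The methionine sulfoxide reductase MSRB1 had 0.39 and SELENOS, a membrane protein of the endoplasmic reticulum, 0.21. Of the SELENOS transcripts, the authors' deposited tables give NM_018445 as 0.04 for knockdown and 0.16 for control cells, and NM_203472 as 0.29 and −0.21. SELENOO, a mitochondrial pseudokinase, had 0.03 and SELENOI, an ethanolaminephosphotransferase, −0.04. SEPHS2, which makes the selenium donor for selenocysteine, had −0.30. TXNRD3, the third thioredoxin reductase, had −1.43, from 0.10 in knockdown and 1.55 in control cells in the authors' deposited tables, and the authors' deposited table for knockdown cells lists a further transcript with −0.17. Over all 19 measured selenoprotein genes, 12 lay above 0 in each population, against 45.9% of all genes in knockdown and 45.7% in control cells. A difference above 0 was seen in 7 of the 19 (50% of all genes), with a median of −0.06.

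The place of the UGA was set beside the values for the 18 measured selenoprotein genes with a paired model, GPX1 left aside. For the 10 whose first annotated selenocysteine codon lay 50 bases or more before the last exon junction, the distance commonly taken to allow nonsense-mediated decay, the median was 0.32 in knockdown and 0.39 in control cells, with 8 of 10 above 0 in each. For the other 8, with a shorter distance, a codon in the last exon or no junction, it was −0.07 and −0.09, with 3 of 8 above 0 in each. Of all genes 45.9% and 45.7% lay above 0. The first kind held 7 genes of the set and the second only TXNRD1 and SELENOK, so the kinds largely follow membership. The 3 genes of the first kind from outside the set had medians of 0.54 in knockdown and −0.07 in control cells, with 2 and 1 above 0. The median centred difference was −0.10 where the junction lay 50 bases or more downstream and −0.04 in the other kind. Whether the kinds differ was not tested, and they overlapped, from −1.05 (SELENON) to 0.96 (SELENOF) and from −0.46 (SEPHS2) to 1.55 (TXNRD3) in control cells. SELENOF was placed by NM_004261, whereas its 0.96 was carried by NM_203341, whose paired model has the junction 28 bases after the codon. With GENCODE's longest coding model in place of the paired one the distance moved to 364 bases for GPX4 and 136 for SELENOH, both still over 50.

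The 3′ untranslated regions of the set were shorter than usual, with a median of 607 bases beside 1170 for 11072 genes with a paired model. For GPX1 this used the 804 bases of its paired 1-exon model, as did its search and length match below. The unpaired 2-exon model of GPX1 has 217 bases there. The letters ATATA, the DNA form of a 5-base element reported for RBMS1, were searched on the mRNA strand with overlaps counted. They occurred in 4 of the 10 regions, against 59.0% over all genes. SELENOT held 9 in 2806 bases, SELENOF 3 in 1029, TXNRD1 2 in 1884 and SELENOK 1 in 1148, and GPX1, GPX2, GPX4, TXNRD2, SELENOH and SELENOW none. Among genes whose region was 0.8 to 1.25 times as long, 87.9% held it for SELENOT, 57.4% for SELENOF, 76.9% for TXNRD1, 61.9% for SELENOK and between 19.2% (SELENOH) and 51.3% (GPX1) for the rest. Of the 3 larger differences, GPX2 at −0.84 held none, SELENOF at −0.70 held 3 and TXNRD1 at −0.69 held 2, and whether the letters go with the difference was not tested.

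The list for the machinery that reads UGA as selenocysteine also held genes around it, such as LRP8, SCLY, CELF1 and ELAVL1. Its genes ran from −0.67 (SARS1) to 0.48 (RPL30) in knockdown cells and from −0.68 (LRP8) to 0.53 (RPL30) in control cells. All 15 genes of this list were measured. Within 0.5 in size were 12 of them in each population, beside 63.7% of all genes in knockdown and 62.5% in control cells. Above 0 were 10 in knockdown (45.9% of all genes) and 7 in control cells (45.7%), with medians of 0.16 and −0.09. The control median turned positive under 5 other choices of transcripts or genes, at 0.0166 to 0.20. The centred difference was above 0 in 10 of 15 (50% of all genes), with a median of 0.07, and all 15 gene means were under 0.5 in size, as were 76.9% of all genes. Single transcripts ran wider, as given below for SECISBP2, SECISBP2L and CELF1. SECISBP2, which binds the SECIS element, had a mean of −0.06 in knockdown and −0.18 in control cells and a difference of 0.14, over 3 transcripts whose differences ran from −0.50 to 1.04. Its paralog SECISBP2L had the highest difference of the list, 0.43, followed by the RNA-binding protein ELAVL1 with 0.31 and CELF1 with 0.30. The differences of single transcripts ran from −0.03 to 0.90 for SECISBP2L and from −1.10 to 2.20 for CELF1. The serine-tRNA synthetase SARS1, which charges the selenocysteine tRNA with serine, had −0.14, and SEPHS1 and the selenocysteine lyase SCLY had 0.05 and 0.03. The low SARS1 means came from a non-coding transcript with −1.39 in knockdown and −1.22 in control cells in the authors' deposited tables. Its coding transcript had 0.06 in knockdown and 0.19 in control cells in the same authors' deposited tables. The elongation factor EEFSEC had 0.16 in knockdown and 0.02 in control cells per the authors' deposited tables. SEPSECS, which completes selenocysteine on its tRNA, had −0.54 in knockdown and −0.45 in control cells per the authors' deposited tables, and PSTK, the kinase of the step before, −0.17 and −0.37. TRNAU1AP, a tRNA-associated protein, had the lowest difference, −0.16, and the authors' deposited table for knockdown cells also lists a non-coding transcript with −1.43. RPL30, a ribosomal protein that also binds SECIS elements, had 0.48 in knockdown and 0.53 in control cells per the authors' deposited tables. EIF4A3 and NCL, which have been reported to act on SECIS elements, were at 0.38 and 0.34 in knockdown and at 0.43 and 0.28 in control cells in the authors' deposited tables. The selenium carrier receptor LRP8 had the lowest control value of the list, −0.68, with −0.52 in knockdown cells.

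Genes of the thioredoxin, peroxiredoxin and glutathione systems, in which several selenoproteins act, also lay mostly above 0. Of 18, 14 lay above 0 in knockdown and 15 in control cells, against 45.9% and 45.7% of all genes, with medians of 0.30 and 0.30. Their difference was split evenly, as over all genes (50% above 0), with 9 of 18 above 0 and a median of −0.01. The lowest difference was that of PRDX1, a cytosolic peroxiredoxin, at −0.73, with all 4 transcripts lower in knockdown cells, from −0.60 to 0.05 there and from 0.33 to 0.74 in control cells in the authors' deposited tables. PRDX3, the mitochondrial one, had −0.62, of which the most came from a non-coding transcript with 7.85 in knockdown and 9.62 in control cells per the authors' deposited tables. Its coding NM_006793 had 0.21 and 0.29 in the same authors' deposited tables and another non-coding transcript 0.32 and 0.39, and 2 further transcripts were each in a single table. The highest were GLRX at 0.20 and PRDX6 at 0.16. The GLRX value is a mean over 4 transcripts whose differences ran from −1.80 to 2.15. Thioredoxin itself, TXN, the substrate of TXNRD1, had −0.17, and glutathione reductase, GSR, 0.04.

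**Figure D4:**
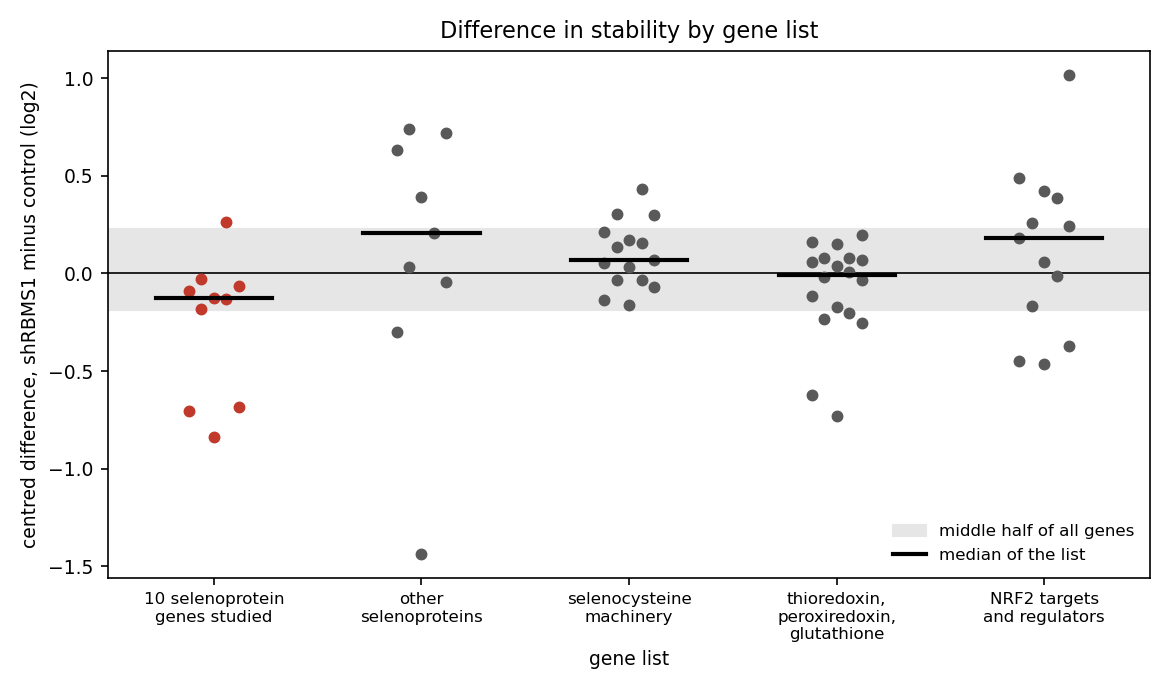
Centred difference in log2 fold change, shRBMS1 minus control, for every measured gene of 5 lists, with a bar at each list's median and a grey band between the quartiles of all genes. The 10 selenoprotein genes have a median of −0.13 and the other selenoproteins 0.21 (0.0265 with the least changing transcript), and 6 of the 10 lie inside the band.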

How the data were processed

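The submitters' processing notes name STAR 2.5, Cufflinks, Cuffdiff and hg38, without roles or order. The authors deposited log2 fold changes of 9 h over 0 h, 1 per RefSeq transcript, in 2 tables, 1 for each shRNA, with libraries already combined. Normalisation, filters and the other tools' versions are not stated. The file headers say only log; base 2 was taken because Cuffdiff writes log2, and all values lay within 10 of 0. Accessions were paired with symbols by RefSeq (GRCh38.p14, 22132) or GENCODE release 29 (212), and 124 without a symbol were left out. A gene's value is the mean over transcripts in both tables, and a size of 1 was counted. The members and gene lists were chosen with earlier results of these data known. Every listed transcript of the 10 genes and every measured gene of the other selenoproteins and the machinery is named, and in further lists the 2 highest and 2 lowest differences and any of 1 or more. Depth per sample is unknown, so no interval or test was given, and nothing in the labels says that libraries came from separate cultures. Selenocysteine codons are those annotated by GENCODE, in place of the RefSeq proteins first intended. Alternatives covered the scale, the transcripts averaged, the size counted and each gene left out. Python 3.11.15, pandas 2.3.3 and numpy 2.4.6 were used, and gene values were tested on simulated data.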

Additional observations from a re-analysis of the deposited data

How the results depend on the processing

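No paired analysis was possible because the deposited tables hold no values per library. The largest shifts came with values relative to ribosomal protein mRNAs. The medians were then −0.13 in knockdown and 0.032 in control cells for the 10 genes (4 and 6 above 0, beside 18.8% and 17.1% of all genes), −0.40 and −0.57 for the other selenoproteins, and −0.22 and −0.50 for the machinery. With genes of 1 shared transcript, chosen after seeing the data, the knockdown median of the set was 0.39, 5 and 6 of 6 lay above 0 in knockdown and control cells, the difference of the other selenoproteins was 0.031 and the control median of the machinery 0.20. The least changing transcript was the one nearest 0, picked separately in each population and for the difference, so it favours small sizes by construction. The machinery's control median was also 0.0203 with medians over transcripts or coding accessions, 0.0166 with all listed transcripts and 0.12 with the least changing transcript, which also gave a difference of −0.037, a difference of 0.0265 for the other selenoproteins and 3 of the 10 genes above 0 in difference. Without TXNRD2 that count was 0. At a size of 0.5, 1 gene of the set was higher and 1 lower in knockdown cells, 4 were higher in control cells and 3 had a lower difference, while 63.7%, 62.5% and 76.9% of all genes lay within 0.5 in knockdown cells, in control cells and in difference. In control cells 1 reached 1 with medians over transcripts and 1 with centring on all genes. Leaving out each gene in turn kept the median difference of the set between −0.13 and −0.13, the knockdown median between 0.24 and 0.26 and the control median between 0.44 and 0.45. Each summary value was compared with its main value under each setting. Of these comparisons 237 stayed within 0.1, or within 1.5 times for counts, and 27 did not. Many of them left out 1 gene, 12 comparisons per gene, and of those only 1, without TXNRD2, did not stay. Among the 27 the sign turned for the knockdown median of the set relative to ribosomal protein mRNAs and for the machinery's medians given above, in knockdown cells relative to ribosomal protein mRNAs, in control cells with the transcript choices and in the difference with the least changing transcript. As depth is unknown, poorly covered transcripts are not identifiable, and leaving out a library was not possible without values per library. The cause of these shifts was not tested.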

Other observations

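Relatives with cysteine in place of selenocysteine were measured for 5 of 6 genes, and 3 of the 5 had a centred difference above 0, beside 50% of all genes. MSRB3, a methionine sulfoxide reductase, had the highest, 1.29, as a mean over transcripts at 0.01, 3.77 and −0.41 in knockdown and −1.36, 0.07 and 0.82 in control cells in the authors' deposited tables. GPX7 had 0.30, GPX8 −0.53 and MSRA −0.02.

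NRF2 targets and regulators, the antioxidant programme to which GPX2 and TXNRD1 belong, had a median difference of 0.18, with 8 of 13 above 0 (50% of all genes). The repressor BACH1 had 1.02, as a mean of transcripts at −0.62, −0.73 and 0.09 in knockdown and −3.79, 0.40 and −0.86 in control cells in the authors' deposited tables, and NFE2L2, which encodes NRF2, 0.49. The lowest were the pentose phosphate enzyme PGD at −0.47 and OSGIN1 at −0.45. GPX2, at −0.84, was below every one of the 13. Partners of selenoproteins in the endoplasmic reticulum had a median of 0.04 over 7 genes, one of them SELENOS. UGGT1, the partner of SELENOF, had 0.26, ZDHHC6, the palmitoyltransferase that works with SELENOK, 0.24, DERL1 −0.12 and DERL2, a channel component of protein retrotranslocation, −0.55. The UGGT1 value is a mean over a non-coding transcript at 0.63 and the coding transcript at −0.11, which went the other way.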
